A study of Mus musculus with 2 samples.

Results

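The Wnt ligands, their receptors and their secreted modulators were 48 genes of the 32285 in the count matrices, chosen by symbol: 19 Wnt ligands, 10 Frizzled receptors (Fzd), the co-receptors Lrp5 and Lrp6, 4 R-spondins (Rspo), 4 secreted Frizzled-related proteins (Sfrp), 4 Dickkopf proteins (Dkk), Notum, Wif1, Axin2, Lef1 and Tcf7. They were measured in whole mouse embryos at embryonic day 9.5 by droplet sequencing of single cells, with 1 wild-type library and 1 library from embryos with a germline Usb1 knockout (Usb1-null), in which CRISPR/Cas9 editing removed exons 1 and 2. Usb1 encodes the nuclease that trims the tail of U6 small nuclear RNA. The comparison asked how cells of the embryo differ without Usb1. Each genotype was 1 library, so no test was possible, and every interval below is a 95% interval for counting error alone. How many embryos went into each library is not stated in the sources consulted.

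Wnt proteins are lipid-modified secreted ligands that pattern the early embryo. A ligand that engages a Frizzled receptor together with Lrp5 or Lrp6 stabilises β-catenin, which enters the nucleus and acts with Tcf and Lef factors on target genes. R-spondins keep Frizzled receptors at the cell surface, whereas Sfrp, Dkk, Wif1 and Notum proteins limit ligand or receptor activity outside the cell. Some ligands, Wnt5a and Wnt11 among them, are better known for β-catenin-independent signals that orient cells.

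The regions upstream of Wnt1 and Wnt3a are printed because these ligands had the most similar levels of all members across the cell clusters described below, and those of Wnt5b and Wnt11 because they were the members, of 31 with an entry in the RefSeq promoter table (GRCm38.p6), that held the Tcf/Lef letters CTTTGAT or, on the other strand, ATCAAAG, in the 250 bases before a transcription start. Capitals mark these letters. Wnt1 is read at chr15:98789607-98789856 on the plus strand, Wnt3a at chr11:59290752-59291001 on the minus strand, Wnt5b at chr6:119449387-119449636 on the minus strand and Wnt11 at chr7:98834862-98835111 on the plus strand.
Wnt1: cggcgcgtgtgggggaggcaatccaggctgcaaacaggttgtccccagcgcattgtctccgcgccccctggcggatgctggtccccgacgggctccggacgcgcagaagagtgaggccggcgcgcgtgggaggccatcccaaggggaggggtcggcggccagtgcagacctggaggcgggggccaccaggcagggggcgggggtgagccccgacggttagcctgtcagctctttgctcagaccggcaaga
Wnt3a: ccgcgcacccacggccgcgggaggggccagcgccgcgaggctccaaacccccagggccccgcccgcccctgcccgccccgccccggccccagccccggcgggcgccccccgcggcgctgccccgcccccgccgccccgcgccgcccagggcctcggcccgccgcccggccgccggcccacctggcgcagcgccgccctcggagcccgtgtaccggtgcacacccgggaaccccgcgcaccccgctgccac
Wnt5b: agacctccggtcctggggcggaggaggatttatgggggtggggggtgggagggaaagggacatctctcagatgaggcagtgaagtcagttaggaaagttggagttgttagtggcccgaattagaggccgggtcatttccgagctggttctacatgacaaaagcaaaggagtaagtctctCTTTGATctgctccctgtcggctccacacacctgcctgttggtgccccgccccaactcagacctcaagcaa
Wnt11: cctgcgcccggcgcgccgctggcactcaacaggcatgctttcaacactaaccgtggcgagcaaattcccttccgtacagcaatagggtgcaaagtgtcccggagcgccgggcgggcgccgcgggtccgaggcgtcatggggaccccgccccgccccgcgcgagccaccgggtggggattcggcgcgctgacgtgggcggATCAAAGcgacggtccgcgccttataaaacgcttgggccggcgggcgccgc
The letters were thus in 2 of 31 members (6.45%), beside 3.72% of all 27025 genes in that table. The shorter letters CTTTG or CAAAG, which the longer ones hold, were in 13 of 31 members (41.9%), beside 52.2% of all genes. No match says only that these letters are not in this window. G and C made up 87.6% of the Wnt3a window and 71.6% of the Wnt1 window, beside a median of 66.8% over the members' windows and 52.4% over all windows. The table lists further starts for Wnt5b and Wnt11, whose windows lacked the letters.

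After filtering, 15161 wild-type and 13018 Usb1-null cells remained, with 21732106 and 33383886 unique molecular identifiers (UMIs, each counting 1 captured transcript) and medians of 1243 and 2299.5 UMIs per cell. The libraries shared 61 cell barcodes. Usb1 itself had 68 and 47 UMIs, or 3.13 and 1.41 per 1e6 UMIs. Where these reads lie was not examined, and reads from transcript ends would lie outside the deleted exons, so they do not check the labels. Xist had 53276 UMIs in the wild-type and 26 in the Usb1-null library, and 4 Y-linked genes had 14 and 23463, so the genotype cannot be told apart from the sex of the embryos. The study that reported these data described Usb1-null embryos of this day as markedly smaller. A difference in size or stage therefore cannot be told apart from the genotype either. None of the 48 genes lies on chromosome X or Y. Clustering without the 48 genes gave 29 clusters, of which 25 had at least 50 cells in each library and were not made mostly of doublets. Marker genes named 20 of these and 5 stayed unnamed. Primitive erythroid-like cells made up 3.94% of the wild-type and 1.45% of the Usb1-null cells. Levels are UMIs scaled to a library or cluster total of 1e6 (CPM). They are not divided by gene length, so they are compared between cells and libraries and not between genes. Pairs of values give wild-type first, and the highest cluster of a gene is that with the highest mean of both libraries.

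Wnt1 and Wnt3a, the ligands of the dorsal neural midline, peaked in cluster 25, a roof plate-like cluster of 74 wild-type and 59 Usb1-null cells. Wnt1 stood there at 306 CPM (211 to 429.5) in the wild-type and 182 CPM (119.7 to 264) in the Usb1-null library, against a median of 3.37 CPM over the 25 clusters. Wnt3a stood at 334 CPM (234 to 462) and 303 CPM (221 to 405), against a median of 2.43 CPM. For both genes the intervals of the libraries overlapped. The next highest clusters of both were cluster 5, midbrain and midbrain-hindbrain boundary-like, and cluster 3, dorsal neural tube-like. Wnt1 measured 75.2 and 63.6 CPM in cluster 5 and Wnt3a 66.1 and 65.3 CPM in cluster 3. In cluster 25, UMIs of both genes were found in 9 of 74 wild-type and 11 of 59 Usb1-null cells. Wnt3, a close relative of Wnt3a, was highest in cluster 3 at 22.5 and 16.6 CPM.

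Other ligands marked other territories. Wnt6, an epithelial ligand, had 66.5% of its UMIs in surface ectoderm-like cells (cluster 2), at 247 CPM (225 to 271) in the wild-type and 151 CPM (137 to 166) in the Usb1-null library, without overlap of the intervals. Wnt7a was highest in the same cells, at 40.1 and 17.9 CPM. Forebrain and optic neuroepithelium-like cells (cluster 7) held the highest levels of Wnt8b, a ligand of the dorsal forebrain, at 130.4 and 72.3 CPM, and of Wnt7b, at 66 and 39.5 CPM. Wnt2, known from heart and lung mesoderm, peaked in the unnamed cluster 18, whose leading genes included Postn, Gata4 and Wt1, at 232 and 199.9 CPM. Cardiomyocyte-like cells came next with 77.9 and 91.7 CPM. Wnt16 had 43% of its UMIs in dermomyotome and myotome-like cells (cluster 8), at 36.6 and 21.9 CPM. Wnt11 was highest in intermediate mesoderm-like cells at 28.7 and 30.8 CPM, from only 5 and 11 UMIs, and next in cardiomyocyte-like cells at 23.7 and 24.9 CPM, from 21 and 35 UMIs. Wnt9a was highest in cluster 5, at 26.7 and 15 CPM.

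Some ligands were broad. Wnt5b had 159 CPM (154 to 165) in the whole wild-type and 147 CPM (143 to 151) in the whole Usb1-null library, reached 559 and 497 CPM in cluster 7 and had a median of 107 CPM over clusters. Wnt5a, which guides outgrowth of the limbs and face, had 44.5 CPM (41.8 to 47.4) and 55.7 CPM (53.2 to 58.2) in the whole libraries. Its highest clusters were the unnamed cluster 15, whose leading genes included Tnc and Tlx1, at 77.3 and 117 CPM, craniofacial mesenchyme-like cells (cluster 12) at 105 and 79.2 CPM, and limb bud and body wall mesenchyme-like cells (cluster 4) at 61.3 and 97.9 CPM. Which library was higher thus differed between clusters 15 and 12. Wnt4, a ligand of kidney and gonad formation, had its highest mean in cluster 25, from 8 and 6 UMIs. In the small endothelial-like cluster 24, its highest in wild-type, Wnt4 had 13 and 5 UMIs (ratio 0.259, 0.0722 to 0.773). Ligands summed in that cluster, with 38 and 16 UMIs, had the lowest ligand ratio of the 25 clusters (0.283, 0.147 to 0.52). Wnt2b was nearly flat, its highest cluster mean being 1.47 times its median of 6.94 CPM. Wnt8a, Wnt9b, Wnt10a and Wnt10b had 22, 49, 16 and 19 UMIs over both libraries, and 73.5% of those of Wnt9b came from surface ectoderm-like cells.

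**Figure D1:**
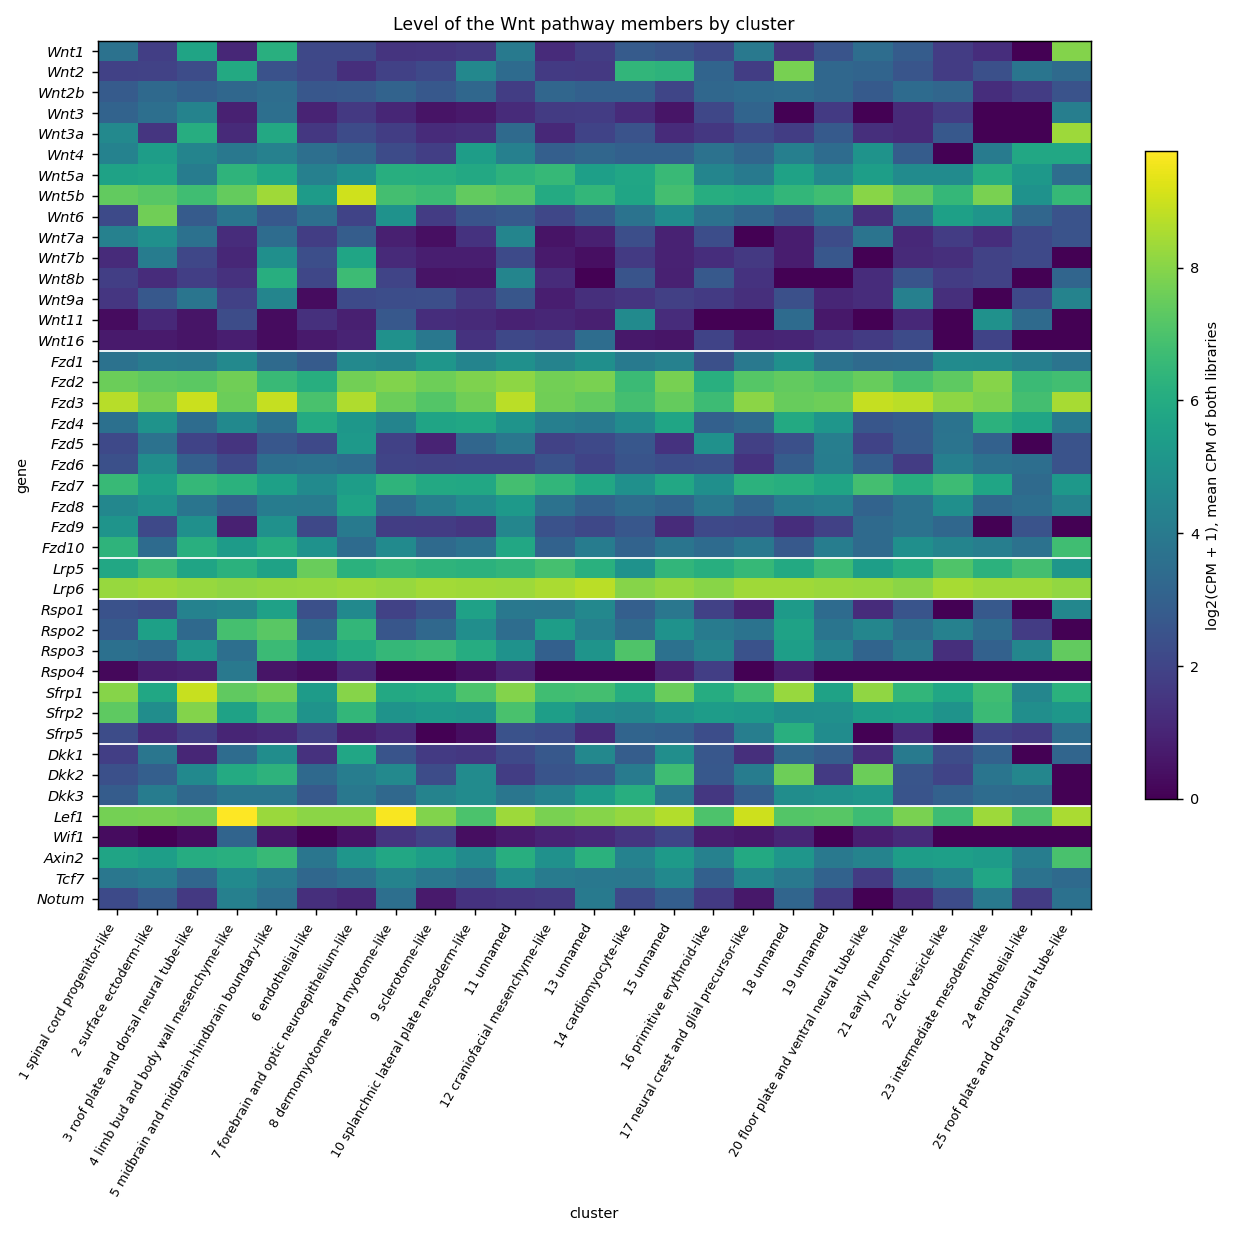
Heat map of the 42 members with at least 50 UMIs over both libraries (rows, grouped by family) in the 25 clusters (columns), coloured by log2 of the mean CPM of the 2 libraries plus 1. Wnt1 and Wnt3a are brightest in cluster 25, Wnt6 in cluster 2, Wnt8b in cluster 7 and Wnt2 in cluster 18, whereas Lrp6, Fzd2 and Fzd3 are bright across the row.

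Several receptors were present across the embryo. Fzd3, known from axon guidance and planar cell polarity, had 269.5 CPM (263 to 277) in the whole wild-type and 267 CPM (261 to 272) in the whole Usb1-null library. Its highest clusters were neural, with 513 and 499 CPM in cluster 3, 478 and 481 CPM in cluster 5 and 530.2 and 424 CPM in floor plate-like cells (cluster 20). Fzd2 had 179 CPM (174 to 185) and 166 CPM (161 to 170.1), and its highest cluster mean was only 1.63 times its median over clusters. Fzd1 and Fzd7, which are related to Fzd2, were broad as well, with highest cluster means 1.93 and 1.99 times their medians. Fzd5 and Fzd8, close relatives used in the eye and forebrain, were both highest in cluster 7, Fzd5 at 36.2 and 39.5 CPM and Fzd8 at 55.5 and 42.3 CPM. Fzd10 followed the dorsal ligands, at 74.1 and 141 CPM in cluster 25, 83.9 and 78.5 CPM in spinal cord progenitor-like cells (cluster 1) and 71.3 and 67.7 CPM in cluster 3. Fzd9 was highest in cluster 1, at 39.4 and 25.5 CPM, and Fzd6 in surface ectoderm-like cells, at 31.5 and 21.4 CPM. Fzd4, a receptor of blood vessels, measured 59.8 and 63.3 CPM in endothelial-like cells (cluster 6) and 91.7 and 61.7 CPM, from 16 and 22 UMIs, in intermediate mesoderm-like cells.

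The co-receptor Lrp6 was the most even of the members with at least 100 UMIs, with a highest cluster mean 1.36 times its median of 315 CPM. Lrp5, the second co-receptor, had 79 CPM (75.3 to 82.8) and 82.3 CPM (79.2 to 85.4) in the whole libraries, with overlapping intervals, and was highest in endothelial-like cluster 6 at 178 and 186 CPM.

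Secreted modulators had territories of their own. Rspo3, an R-spondin of vessels and heart, measured 213 and 128 CPM in roof plate-like cluster 25, 121 and 143 CPM in cardiomyocyte-like cells and 117 and 81.4 CPM in sclerotome-like cells. Rspo2, needed for limb outgrowth, was highest in cluster 5 at 188 and 115 CPM and next in limb bud and body wall mesenchyme-like cells at 132 and 99.4 CPM. Rspo1 measured 47.2 and 46.4 CPM in splanchnic mesoderm-like cells (cluster 10) and 59.3 and 34 CPM in cluster 5. Rspo4 had 67 UMIs, 71.6% of them in limb bud and body wall mesenchyme-like cells, and the secreted inhibitor Wif1 had 66 UMIs, 37.9% of them there.

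The Wnt-binding inhibitors Sfrp1 and Sfrp2 shared dorsal neural tube-like cluster 3 as their highest. Sfrp1 measured 546 CPM (507 to 587) and 429.8 CPM (402 to 459) there, and Sfrp2 273 CPM (246 to 303) and 217 CPM (197 to 238), both without overlap of the libraries' intervals. Sfrp5 was highest in cluster 18, at 61.6 and 78 CPM. Of the Dickkopf genes, Dkk1, an Lrp antagonist needed for head formation, measured 32.2 and 75.6 CPM in forebrain-like cluster 7 and 39.5 and 15.3 CPM in cluster 15. Dkk2 measured 229.9 and 152 CPM in cluster 18 and 259.6 and 121 CPM in floor plate-like cells. Few cells carried the floor plate-like value, with 94 UMIs in 18 of 274 wild-type cells (6.57%) and 81 UMIs in 21 of 272 Usb1-null cells (7.72%). With cells thinned to 800 UMIs these shares were 3.6% (1.57 to 6.98) and 5.17% (2.85 to 8.52), with overlapping intervals. Dkk3, a divergent relative, was highest in cardiomyocyte-like cells, at 84.7 and 51.2 CPM. Dkk4 and Sfrp4 had 9 and 43 UMIs in all.

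Axin2, a negative-feedback gene that β-catenin signalling switches on in many tissues, was highest in the same clusters as Wnt1: 129.8 CPM (70.9 to 218) and 114 CPM (66.6 to 183) in cluster 25, and 85.2 CPM (69.5 to 103) and 105 CPM (91.8 to 120.3) in cluster 5. Lef1, a nuclear partner of β-catenin, was highest elsewhere, with 879 CPM (830.4 to 930.4) and 844 CPM (804 to 885) in limb bud and body wall mesenchyme-like cells and 752 CPM (704 to 802) and 844 CPM (803 to 886) in dermomyotome and myotome-like cells. Tcf7, a related factor, was highest in intermediate mesoderm-like cells, at 57.3 and 50.4 CPM from 10 and 18 UMIs. Notum, a secreted enzyme that removes the lipid of Wnt ligands, measured 16 and 20 CPM in limb bud and body wall mesenchyme-like cells. The intervals of the libraries overlapped in 24 of 25 clusters for Axin2, 20 for Lef1 and 25 for Tcf7. These genes had 2585, 17110 and 821 UMIs, overlap depends on such depth, and no like count was made over all genes. Over the whole libraries, the ratio intervals of Axin2 (1.03 to 1.21) and Lef1 (1.02 to 1.08) lay above 1. That of Tcf7 (0.994 to 1.33) held 1. Across the 25 clusters, log2 levels of Axin2 went with those of the target genes Tnfrsf19 (Pearson r = 0.82), Nkd1 (r = 0.75) and Sp5 (r = 0.65), while for the other listed targets outside the 48 with at least 50 UMIs r was 0.53 for Cdx1, 0.45 for Ccnd1, 0.28 for Lgr5, 0.10 for Myc, -0.02 for Apcdd1, -0.09 for Cdx2 and -0.14 for T. It was 0.58 for Wnt3a and 0.54 for Lef1. All clusters share the 2 libraries and differ in depth, so these values are descriptions.

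**Figure D2:**
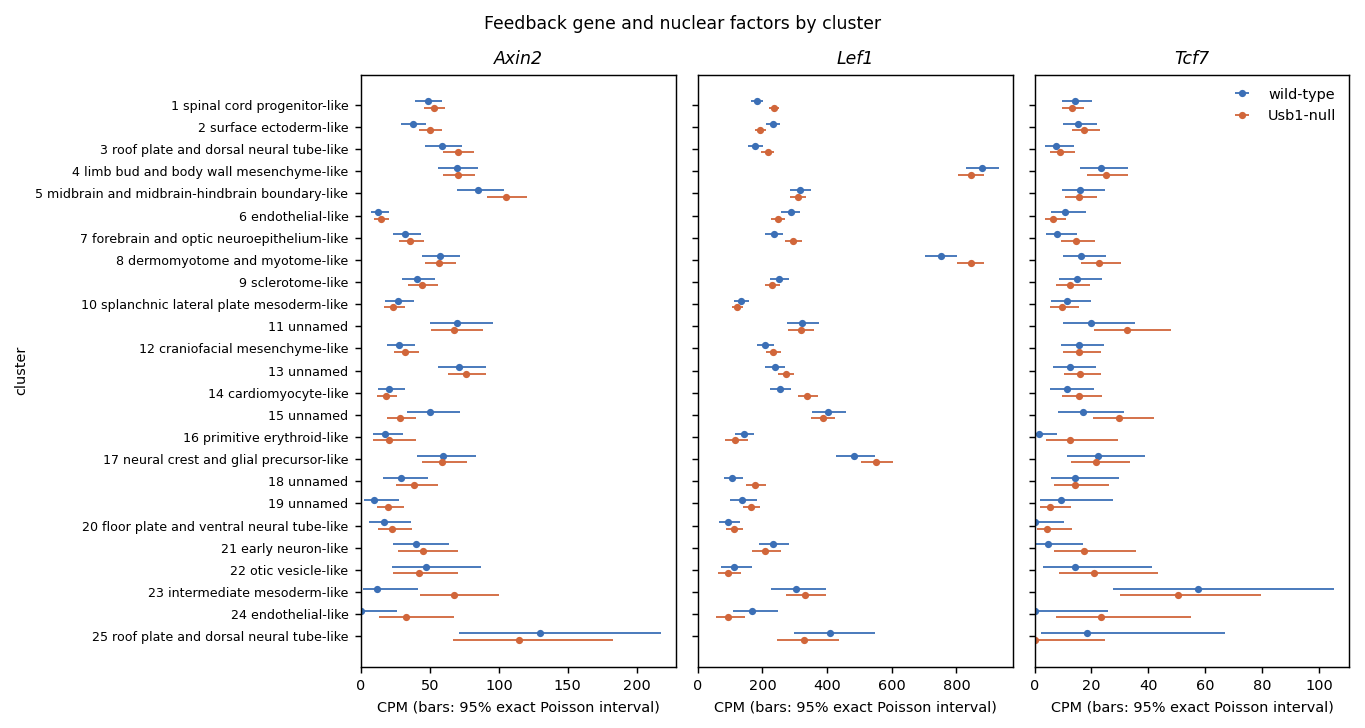
Levels of Axin2, Lef1 and Tcf7 in CPM (horizontal axes) in the 25 clusters (vertical axis), with wild-type in blue and Usb1-null in orange, 1 library each, and 95% exact Poisson intervals as bars. Axin2 is highest in clusters 25 and 5 and Lef1 in clusters 4 and 8.

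Of 780 pairs of members with at least 100 UMIs, Wnt1 and Wnt3a had the most similar log2 levels over the 25 clusters (r = 0.91, and 0.84 and 0.81 within the wild-type and Usb1-null libraries). The next pairs were Wnt3 with Wnt3a (r = 0.79), Fzd1 with Fzd2 (r = 0.77), Fzd10 with Wnt3a (r = 0.75) and Wnt1 with Wnt3 (r = 0.72). Paralogs ranged widely. Sfrp1 with Sfrp2 had r = 0.67, Fzd5 with Fzd8 0.63, Wnt7a with Wnt7b 0.45, Lrp5 with Lrp6 0.44, Fzd9 with Fzd10 0.31 and Fzd1 with Fzd7 0.31. Wnt5a with Wnt5b had r = 0.22 and Wnt2 with Wnt2b -0.02. The pairs Wnt8a with Wnt8b (0.09), Wnt9a with Wnt9b (-0.06) and Wnt10a with Wnt10b (0.18) each included a gene under 50 UMIs. Of ligand genes that lie side by side in the genome, Wnt3a and Wnt9a, 16176 bases apart, had r = 0.61. Wnt10a with Wnt6 (0.47), Wnt1 with Wnt10b (0.39) and Wnt3 with Wnt9b (0.10) each rest on a gene under 50 UMIs.

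The highest cluster was the same in both libraries for 25 of 40 members with at least 50 UMIs in each, and for 33 the highest wild-type cluster was among the 3 highest of the Usb1-null library. No like count was made over all genes, so these counts do not say whether the members agreed better or worse than other genes. Some highest clusters were small, such as cluster 25 with 74 and 59 cells. Across clusters, r between the libraries was 0.98 for Fzd3, 0.96 for Sfrp1, 0.95 for Wnt5b and 0.88 for Wnt3a, but 0.16 for Fzd6, 0.18 for Wnt2b and 0.23 for Tcf7.

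Between the whole libraries, 5 of the 6 members that were at least 1.5-fold lower in Usb1-null were ligands. Of 42 members with at least 50 UMIs, 6 (14.3%) were at least 1.5-fold lower in the Usb1-null library, beside 5.9% of 16752 genes, and 0 were at least 1.5-fold higher, beside 9.2% of genes. The 6 were the ligands Wnt7b, Wnt8b, Wnt4, Wnt7a and Wnt6 and the antagonist Dkk2. With 5 CPM added to both levels, which draws ratios of low genes towards 1, the lower count was 1 (Wnt8b), beside 1.86% of genes. When both libraries were given the wild-type cluster shares, the counts were again 6 and 0, beside 5.46% lower and 9.02% higher among all genes. With a minimum of 200 UMIs, the lower and higher counts were 6 and 0 of 39 members, beside 5.04% and 4.85% of all genes. In whole-library sums, fewer cells of a type and less RNA per cell cannot be told apart. The median log2 ratio (Usb1-null over wild-type, 1 CPM added) was -0.05 over the members and -0.00 over all genes. It was -0.31 over 15 ligands, -0.36 over 4 R-spondins, -0.14 over 3 Dkk genes, -0.08 over 3 Sfrp genes, 0.03 over 10 Frizzled genes and 0.19 over Lrp5 and Lrp6. The ratio of summed UMIs was 0.886 (0.861 to 0.913) for ligands, 0.747 (0.707 to 0.791) for R-spondins, 0.833 (0.774 to 0.896) for Dkk genes, 0.891 (0.86 to 0.923) for Sfrp genes and 1.02 (1 to 1.05) for Frizzled genes.

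Wnt7b measured 9.53 CPM (8.27 to 10.9) in the wild-type and 5.06 CPM (4.33 to 5.89) in the Usb1-null library, a ratio of 0.531 (0.431 to 0.654). Wnt8b measured 15.3 CPM (13.7 to 17) and 8.39 CPM (7.43 to 9.43), a ratio of 0.549 (0.467 to 0.646). For these and the other 3 ligands of the set, the intervals of the libraries did not overlap. Wnt4 measured 20.3 and 12.3 CPM (ratio 0.604, 0.527 to 0.692), Wnt7a 9.57 and 5.93 CPM (ratio 0.62, 0.508 to 0.756) and Wnt6 31.1 and 19.7 CPM (ratio 0.634, 0.568 to 0.706). Dkk2, at 33.4 and 22.3 CPM, was just inside the 1.5-fold limit (ratio 0.666, 0.601 to 0.739), and Wnt9a (0.689), Rspo2 (0.701) and Wnt16 (0.705) were just outside it. Among cells with at least 1000 genes, Wnt4 and Wnt6 were no longer past the limit, while Rspo2 and Wnt16 were. Not every ligand was lower. The intervals of the ratio held 1 for Wnt1 (1.01, 0.867 to 1.19), Wnt3a (1.04, 0.892 to 1.21) and Wnt3 (1.03, 0.798 to 1.34), and Wnt5a was higher (1.2495, 1.16 to 1.35).

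The highest log2 ratios with 1 CPM added were those of Fzd1, Fzd7, Sfrp5, Dkk1 and Lrp6, while without that addition Sfrp5 had the highest ratio of the members with at least 50 UMIs. Fzd1 measured 14.2 CPM (12.7 to 15.9) and 20.6 CPM (19.1 to 22.2), a ratio of 1.45 (1.27 to 1.66), and Fzd7 52.5 CPM (49.5 to 55.7) and 74.3 CPM (71.4 to 77.2), a ratio of 1.41 (1.32 to 1.52). Sfrp5 measured 3.77 and 5.51 CPM (ratio 1.46, 1.12 to 1.92), Dkk1 9.06 and 11.9 CPM (ratio 1.32, 1.11 to 1.57) and Lrp6 279.9 and 349 CPM (ratio 1.245, 1.21 to 1.28). Sfrp4, under the UMI minimum, had 9 and 34 UMIs (ratio 2.46, 1.16 to 5.83). The ratios of other members were 1.12 (1.03 to 1.21) for Axin2, 1.05 (1.02 to 1.08) for Lef1, 1.15 (0.994 to 1.33) for Tcf7 and 1.02 (0.802 to 1.3) for Notum. The direction of Lef1 did not hold in all settings: its log2 ratio was 0.07, -0.02 in cells with at least 1000 genes and -0.00 with thinned cells. The libraries differ in depth, and with each cell thinned to 800 UMIs the log2 ratio was -0.70 for Wnt7b, -0.92 for Wnt8b, 0.65 for Fzd1, 0.53 for Fzd7 and 0.34 for Lrp6, beside -0.80, -0.79, 0.51, 0.49 and 0.32 without thinning. Sex also differs between the libraries, and its part in these differences was not tested.

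**Figure D3:**
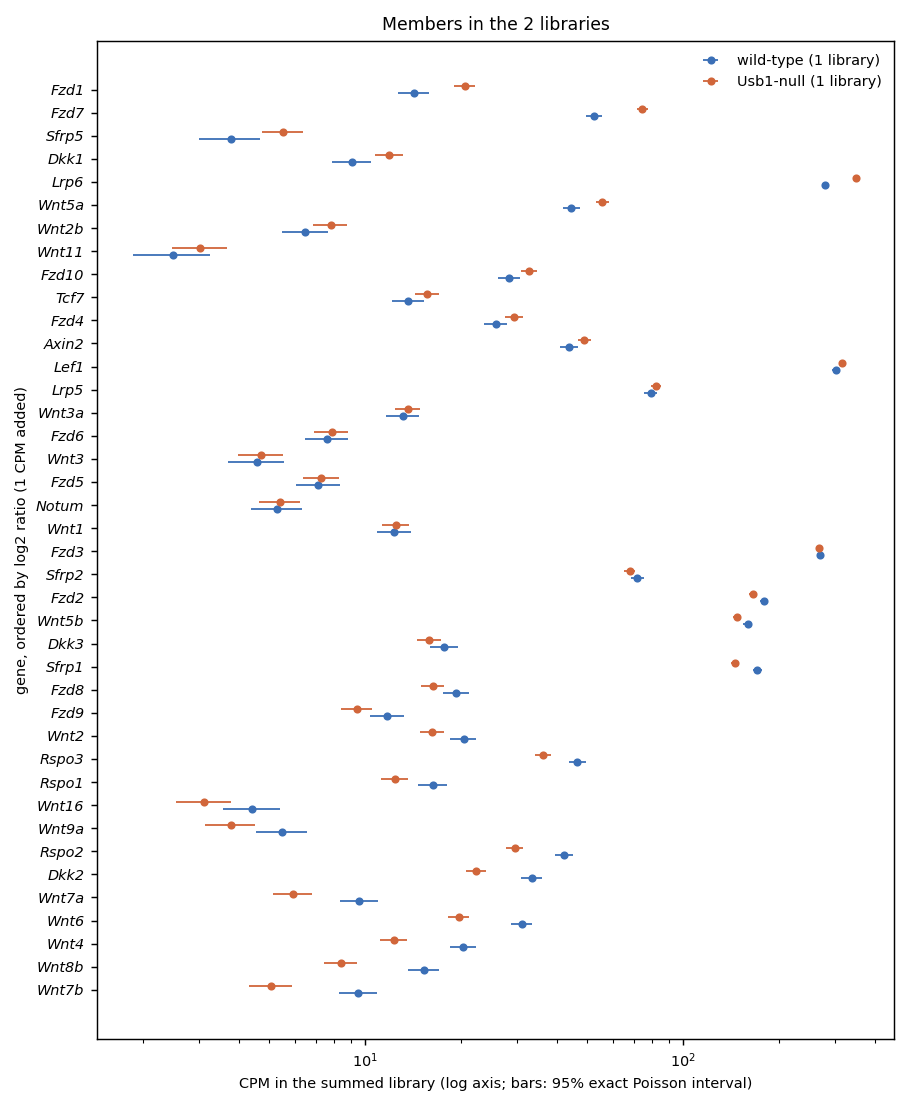
Level of the 40 members with at least 100 UMIs in CPM (horizontal log axis) in the wild-type (blue) and Usb1-null (orange) library, 1 each, with 95% exact Poisson intervals as bars, ordered by log2 ratio with 1 CPM added from Wnt7b at the bottom to Fzd1 at the top. The intervals are separate for Wnt7b, Wnt8b and Wnt4 and for Fzd1 and Fzd7, and overlap for Wnt1, Wnt3 and Wnt3a.

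Within clusters, Wnt8b was lower in Usb1-null in both clusters that held most of it, at a ratio of 0.554 (0.437 to 0.702) in cluster 7 and 0.496 (0.373 to 0.66) in cluster 5, and so was Wnt7b, at 0.598 (0.429 to 0.832) and 0.42 (0.262 to 0.667). In surface ectoderm-like cells the ratio was 0.61 (0.534 to 0.698) for Wnt6 and 0.445 (0.305 to 0.644) for Wnt7a, and all ligands summed to 636 and 436 CPM. Wnt4 had ratios of 0.501 (0.37 to 0.678) in cluster 2 and 0.274 (0.128 to 0.551) in limb bud and body wall mesenchyme-like cells. In the unnamed cluster 15, Wnt6 had 24 and 12 UMIs (ratio 0.263, 0.12 to 0.546), and in the unnamed cluster 19 Wnt5a had 2 and 35 UMIs (ratio 6.06, 1.56 to 52). Wnt1 in cluster 25 had a ratio of 0.594 with an interval that held 1 (0.343 to 1.02).

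Receptors varied in how many clusters were higher in Usb1-null. Over the 8693 genes with at least as many UMIs as Fzd1 the median was 12 of 25 clusters, 12.3% of them were higher in at least 21 and 1.59% in all 25. Fzd3 was higher in 8 clusters, Fzd2 in 9, Fzd8 and Fzd9 in 10 each, Lrp5 in 13, Fzd6 in 14, Fzd5 in 15, and Fzd4 and Fzd10 in 16 each. Lrp6, Fzd7 and Fzd1, described next for their high whole-library ratios, had the highest tallies of the receptors. Clusters are parts of the same sums, so these tallies follow in part from the ratios and are not separate support for them. The 8693 genes were not matched on ratio, nor on the 17718 UMIs of Lrp6. Lrp6 was higher in Usb1-null in 25 of 25 clusters, with ratios from 1.04 (0.913 to 1.18) in cluster 3 to 1.59 (1.21 to 2.1) in early neuron-like cells. Fzd7 was higher in 22 of 25 clusters, among them neural crest-like cells (2.61, 1.64 to 4.31), forebrain-like cluster 7 (1.95, 1.32 to 2.96) and surface ectoderm-like cells (1.77, 1.31 to 2.43). Its ratio was below 1 in primitive erythroid-like (0.558, 0.218 to 1.28), floor plate-like (0.829, 0.562 to 1.24) and otic vesicle-like cells (0.985, 0.56 to 1.77), with intervals that held 1. In early neuron-like (1.77, 1 to 3.2) and intermediate mesoderm-like cells (1.61, 0.668 to 4.43) the interval of Fzd7 was wide. Fzd1 was higher in 21 of 25 clusters, among them spinal cord progenitor-like cells (2.27, 1.27 to 4.32) and cluster 3 (3.22, 1.56 to 7.49), whereas in cardiomyocyte-like cells (1.96, 0.899 to 4.72) and cluster 18 (1.8, 0.838 to 4.17) its interval held 1. Fzd10 was higher in splanchnic mesoderm-like cells (2.55, 1.09 to 6.92) and Fzd4 in the unnamed cluster 13 (2.52, 1.14 to 6.33). The intervals held 1 for Lrp5 in otic vesicle-like cells (0.619, 0.375 to 1.02) and for Lef1 in the small endothelial-like cluster 24 (0.56, 0.294 to 1.06).

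The ratios of Rspo3 and Dkk2 lay on both sides of 1 in different clusters, and the difference between clusters was not tested. Summed over the R-spondins, the interval of the ratio lay above 1 in clusters 8 and 23 alone of the 25, the latter from 1 and 14 UMIs, and summed over the Dkk genes in cluster 7 alone. Rspo3 was lower in Usb1-null in cluster 7 (90.15 and 33.4 CPM, ratio 0.37, 0.266 to 0.511), in cluster 5 (137 and 61.6 CPM, ratio 0.45, 0.354 to 0.57) and in the shallow unnamed cluster 11 (ratio 0.473, 0.229 to 0.945), but higher in dermomyotome and myotome-like cells (54.5 and 126 CPM, ratio 2.31, 1.75 to 3.07). Rspo2 had 6 and 29 UMIs in endothelial-like cluster 6 (ratio 2.98, 1.22 to 8.78), and Rspo1 measured 19.8 and 7.14 CPM in craniofacial mesenchyme-like cells (ratio 0.36, 0.158 to 0.769). Dkk2 was lower in dermomyotome and myotome-like cells (36.6 and 10.2 CPM, ratio 0.278, 0.153 to 0.485), in cluster 3 (ratio 0.349, 0.207 to 0.575) and in floor plate-like cells (ratio 0.466, 0.342 to 0.634). It had a ratio of 1.09 (0.838 to 1.43) in cluster 5 and was higher in cluster 7 (ratio 1.97, 1.05 to 3.93). The floor plate-like UMIs of Dkk2 came from only 18 wild-type and 21 Usb1-null cells, which the interval does not allow for. The share of cells with a Dkk2 UMI was not lower there (6.57% and 7.72%). Dkk3 was lower in sclerotome-like cells (ratio 0.495, 0.266 to 0.901).

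**Figure D4:**
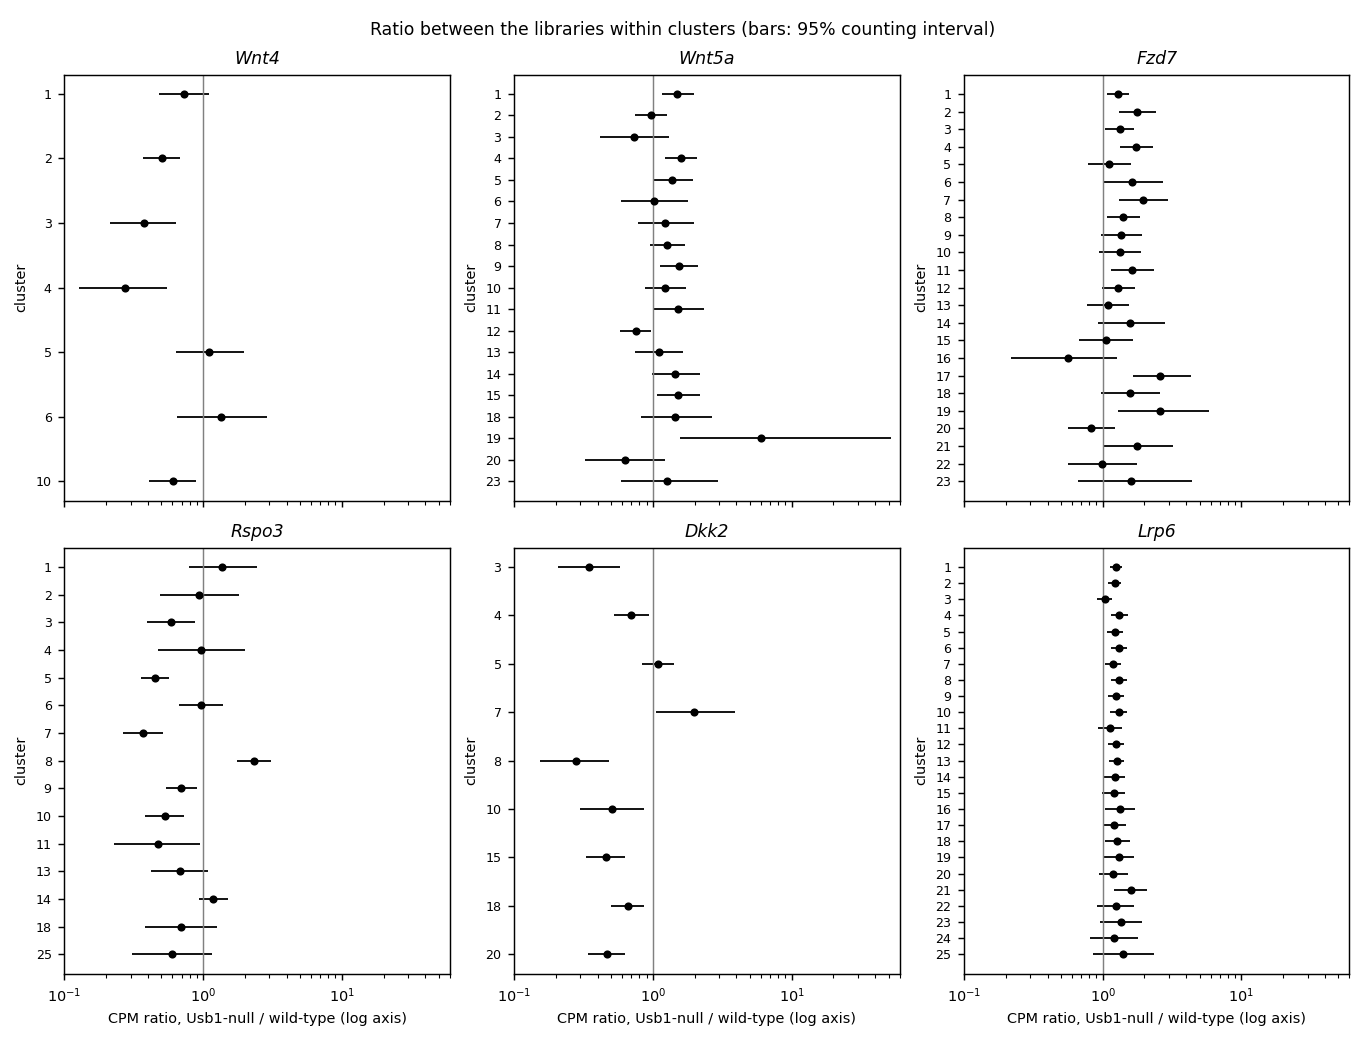
Ratio of CPM, Usb1-null over wild-type (horizontal log axis), for Wnt4, Wnt5a, Fzd7, Rspo3, Dkk2 and Lrp6 in each cluster with at least 30 UMIs of the gene (vertical axis, cluster), with 95% counting intervals and a line at 1. Lrp6 lies to the right of 1 in 25 of 25 clusters, while Rspo3 and Dkk2 have clusters on both sides.

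Shares of cells depend on depth, so each cell was also thinned to 800 UMIs, which left 12472 wild-type and 12714 Usb1-null cells. At that depth the cells with a ligand UMI made up 23.3% (22.5 to 24) in the wild-type library and 21.7% (21 to 22.5) in the Usb1-null library, with exact Clopper-Pearson intervals. Those with a Frizzled UMI made up 38.4% (37.6 to 39.3) and 39.7% (38.9 to 40.6). Without thinning the ligand shares were 33.2% and 45.3%, the deeper library being higher. In surface ectoderm-like cells, thinned Wnt6 shares were 17.8% (15.5 to 20.2) and 12.4% (10.45 to 14.5), and unthinned shares 23.9% and 23.6%. In primitive erythroid-like cells, which should lack Wnt6, the thinned shares were 0.303% and 0.556%, at median depths of 838 and 1723 UMIs beside 1234 and 2272.5 UMIs in surface ectoderm-like cells. Thinned Lef1 shares in limb bud and body wall mesenchyme-like cells were 43.2% and 42.9%, beside 8.79% and 5.56% in primitive erythroid-like cells. For the other members at least 1.5-fold lower in Usb1-null, the intervals of the thinned shares overlapped in their highest clusters. In cluster 7 the shares were 7.31% (5.52 to 9.45) and 5.95% (4.26 to 8.04) for Wnt8b and 4.14% and 3.81% for Wnt7b. They were 3.2% and 1.66% for Wnt7a in cluster 2 and 4.55% and 1.69% for Wnt4 in cluster 25. For Dkk2 in cluster 18 they were 11.2% and 7.69%.

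Of 62 other genes of the pathway, listed apart from the 48, 60 had at least 50 UMIs. Of these, 2 were at least 1.5-fold lower in Usb1-null, beside 5.9% of all genes, and 3 at least 1.5-fold higher, beside 9.2%, with a median log2 ratio of -0.01. The lower genes were Sostdc1, a secreted antagonist (8.28 and 3.86 CPM, ratio 0.467, 0.369 to 0.588), and Kremen2, a Dkk receptor (50 and 32 UMIs, ratio 0.417, 0.259 to 0.662). The higher genes were 3 of 10 transcriptional targets: Cdx2, a gene of the posterior axis (21 and 94 UMIs, ratio 2.91, 1.8 to 4.93), T, the mesoderm factor Brachyury (ratio 1.66, 1.18 to 2.36), and Myc, a growth regulator (ratio 1.56, 1.32 to 1.84). Their log2 ratios with 1 CPM added were 0.96, 0.54 and 0.59, and 0.82, 0.45 and 0.72 with the wild-type cluster shares. By log2 ratio with 1 CPM added, among genes with at least 100 UMIs, the next highest were the corepressor Tle3 (ratio 1.31, 1.23 to 1.4) and the target Sp5 (ratio 1.36, 1.07 to 1.75). On the same scale the next lowest after Sostdc1 were Prickle3 (ratio 0.691, 0.504 to 0.948) and Celsr2 (ratio 0.766, 0.697 to 0.843) of planar cell polarity, the nuclear partner Bcl9l (ratio 0.779, 0.692 to 0.876) and the feedback inhibitor Nkd1 (ratio 0.839, 0.776 to 0.907). Wls, which carries ligands to the cell surface, had a ratio of 1.03 (0.997 to 1.06), and β-catenin itself (Ctnnb1) 1.06 (1.02 to 1.1).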

How the data were processed

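Per the file headers, the authors deposited unnormalized UMI counts from Cell Ranger 6.1.2, whereas the submitters' processing notes name Cell Ranger 2.1.1 and mm10. Whether introns or strand were counted was not stated, and 17 members overlap another annotated gene. The labels name nuclear RNA, although the protocol describes whole cells. Cells with 200 to 6000 genes and under 30% mitochondrial UMIs were kept. Cells were clustered with scanpy 1.11.5 and leidenalg 0.10.2 (2000 variable genes per library, members left out, 30 principal components, a Harmony-type correction between libraries, 15 neighbours). Scrublet doublet calls were made but kept. Clusters were named from marker lists, by a rule extended after the clusters were seen. Counts were summed per library and cluster. CPM have exact Poisson intervals, ratios exact conditional binomial intervals and shares Clopper-Pearson intervals, at 95% and for counting error only. The intervals of CPM and of ratios treat UMIs of the same cell as independent. With 1 library per genotype no test was run. edgeR 4.0.16 gave TMM factors for an alternative. The ratio code was tested on simulated data.

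Named with values were each member with at least 100 UMIs by its highest cluster, the 2 highest of each family in full, the 5 highest and 5 lowest ratios, the member with the largest ratio in each cluster (at least 30 UMIs, 5 CPM added, 1.5-fold), the 5 most similar pairs, paralogs, and the 5 highest and 5 lowest other pathway genes. Neighbouring ligands, promoter letters and further cluster values were chosen after values were seen. The members and lists were chosen with earlier results of these data known.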

Additional observations from a re-analysis of the deposited data

Results flagged for a closer look

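Listed here are members whose ratio of Usb1-null to wild-type was above 1 in 1 cluster and below 1 in another, each by at least 1.5-fold, with a counting interval that did not hold 1 and with at least 30 UMIs of the gene in the cluster over both libraries. With 1 library per genotype, the difference between clusters was not tested. Of 38 members with at least 30 UMIs in at least 2 clusters, 5 (13.2%) met this, beside 5.31% of 12327 genes. Rspo3 had a ratio of 2.31 in dermomyotome and myotome-like cells (cluster 8) and 0.37 in forebrain-like cells (cluster 7). Dkk2 had 1.97 in cluster 7 and 0.278 in cluster 8. Dkk1 had 2.35 in cluster 7 and 0.388 in the unnamed cluster 15. Dkk3 had 2.3 in limb bud and body wall mesenchyme-like cells (cluster 4), from 11 and 37 UMIs, and 0.495 in sclerotome-like cells (cluster 9). Rspo2 had 2.98 in endothelial-like cells (cluster 6), from 6 and 29 UMIs, and 0.42 in cluster 15.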

How the results depend on the processing

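No paired analysis was possible because each genotype was 1 library, and for the same reason no library could be left out. The count of members at least 1.5-fold higher in Usb1-null was 0. It was 2 (Fzd1, Sfrp5) in cells with at least 1000 genes, beside 9.75% of all genes, 1 (Fzd1) with cells thinned to 800 UMIs, beside 6.98%, 1 (Sfrp4) with a minimum of 20 UMIs, beside 12.1%, and 4 (Dkk1, Fzd1, Fzd7, Sfrp5) when a ratio 25% above 1 sufficed, beside 17.8%. The count of lower members was 6. It was 12 at that smaller fold, beside 16.9% of all genes, and 0 at 2-fold, beside 1.09%. Further alternatives, chosen after seeing the data, added CPM to both levels before the ratio. The lower count was 1 (Wnt8b) with 5 CPM added, beside 1.86%, and 5 with 1 CPM added, without Dkk2, beside 3.96%. Under the other alternatives it was 5 or 6, beside 4.46% to 6.71%. Wnt7a, Wnt7b and Wnt8b were among the lower members in all 8 scalings and cell filters, the reported one included, though not Wnt7a and Wnt7b with 5 CPM added, while Wnt4 and Wnt6 were not among them in cells with at least 1000 genes, nor Dkk2 without doublets or with thinned cells. The median log2 ratio of the members lay between -0.07 and -0.01. Members with the same highest cluster numbered 25 of 40, between 23 and 31 of 40 under other clusterings and 22 of 36 with at least 100 UMIs in each library. The causes were not tested. Of 40 members with at least 100 UMIs, 32 kept the sign of their log2 ratio in all 8 alternatives. Small clusters gave few UMIs, such as 38 and 16 ligand UMIs in cluster 24.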
